A study of Mus musculus with 30 samples.

Results

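Gpnmb, Lgals3, Pltp, Apoc1 and Retnla, 5 genes grouped here as lipid-handling and alternatively activated macrophage genes, were read by 7 of the 6267 probes of the deposited table. They are 5 of the 3663 genes that the platform annotation names through a probe with a single symbol. A probe was taken when its only gene symbol in the platform annotation was one of the 5, and all 7 passed the filter that kept 5010 probes for testing. The 5 genes were chosen by their known roles with results of these same arrays already in view, and which values entered the choice is not recorded. The change from lactation was taken as used, so the time course is given as values without a test. The genotype comparisons were taken as not used, and their p-values rest on that. The study followed the mammary gland of mice as it regressed after lactation, using spotted 2-colour arrays with a common mouse reference RNA. There were 10 groups of 3 mice, 1 array per mouse: wild type and E2F3 +/- animals, which carry 1 disrupted copy of the gene for the cell cycle transcription factor E2F3, at lactation (involution day 0) and at involution days 1, 2, 3 and 4. The labels give no strain, no age and no design of the E2F3 allele, and they name no agent or treatment.

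When milk removal stops, the secretory epithelium of the gland dies, dead cells and residual milk fat are cleared, and adipocytes refill the tissue. Macrophages take part in that clearance, and those that take up lipid and cell debris raise a programme of lysosomal, lectin and lipid transfer genes. Macrophages exposed to interleukin 4 or interleukin 13 take on another set, the alternatively activated state, of which Retnla is a standard marker in mice. Gpnmb encodes a glycoprotein of lysosomes and the cell surface, Lgals3 encodes galectin-3, a lectin that binds galactosides on cells and debris, Pltp encodes the phospholipid transfer protein of plasma lipoproteins, Apoc1 encodes apolipoprotein C-I, and Retnla encodes a secreted protein of the resistin family. None of the 5 is made by macrophages alone: adipocytes, for example, are also known to make Retnla, and epithelial cells make Lgals3. In RNA from whole glands, fewer cells of a type and less RNA per cell cannot be told apart.

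The sequences upstream of the gene starts are shown because alternative activation acts through STAT6, and because they are the regulatory sequences nearest to the genes described here. RefSeq promoters (GRCm38.p6, 250 bases before and 50 bases after the start) were found for 4 of the 5 member genes, Apoc1 being the other. They were searched on both strands for the following letters: CACGTG, an E-box of the kind bound by MITF and TFEB; TTCNNNNGAA, the STAT6 type site; TTCNNNGAA, the STAT3 and STAT5 type site; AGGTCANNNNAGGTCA, the LXR type repeat; GAGGAAGT, the PU.1 type site; TTTGGCGC and TTTCCCGC, E2F type sites; and TGACTCA, the AP-1 site. None of these motifs overlapped another in the promoters shown. The bases upstream of Retnla (chr16:48842359-48842608, plus strand) and of Lgals3 (chr14:47373610-47373859, plus strand) read as follows, 5′ to 3′, with matches in capitals.
Retnla: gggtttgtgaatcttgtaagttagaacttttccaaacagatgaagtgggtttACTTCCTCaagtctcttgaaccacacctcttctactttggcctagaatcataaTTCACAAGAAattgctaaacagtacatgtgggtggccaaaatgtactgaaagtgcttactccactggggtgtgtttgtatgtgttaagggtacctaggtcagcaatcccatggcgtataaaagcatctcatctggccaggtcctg
Lgals3: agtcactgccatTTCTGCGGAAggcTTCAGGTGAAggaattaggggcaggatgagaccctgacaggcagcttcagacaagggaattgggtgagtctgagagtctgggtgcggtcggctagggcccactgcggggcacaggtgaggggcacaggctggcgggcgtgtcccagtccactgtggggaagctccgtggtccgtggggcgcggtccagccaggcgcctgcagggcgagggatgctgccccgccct
In Retnla the first capitals, ACTTCCTC, are the PU.1 type site on the minus strand, with their first base at -198 from the gene start. The second capitals, TTCACAAGAA at -145, are a STAT6 type match. Lgals3 held a pair of STAT6 type matches, TTCTGCGGAA at -238 and TTCAGGTGAA at -225. The STAT6 type letters stood in 6.95% of 32851 promoters of the same length and the PU.1 type letters in 3.20%. Gpnmb held an AP-1 match, found in 5.20% of promoters, that began at base 9 after the gene start, in this 30-base window (chr6:49036508-49036537, plus strand).
Gpnmb: atagatgccaggggcaagTGACTCAtgagc
The E-box stood in 7.15% of promoters, the STAT3 and STAT5 type letters in 8.30%, the LXR type repeat in 0.0152%, and the E2F type letters in 0.514% and 1.07%. None of these was in a member promoter window, and the Pltp promoter held none of the motifs searched. A match of letters is a description of the sequence and no evidence of binding in the gland.

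Each deposited value is a ratio, taken as gland (Cy5) over reference (Cy3). The files do not state that direction. It is likely, since the dyes are so labelled and adipocyte markers lie far above the array median in all 10 groups, at 4.82 to 7.20 on the log2 scale. Values listed at 0 or 0.01, 7.64% of the table, were taken as missing, and each array was centred on its median on the log2 scale. The lowest ratio other than these was 0.02. Gpnmb went down to 0.030 and the Lgals3 probes to 0.026 and 0.022, so the sizes of their folds are uncertain. Without centring, the median difference from lactation over all tested probes was higher by 0.05 to 0.24. Every log2 value below is relative to the median of its array. Of the 30 arrays, 8 were nearer to another group than to their own. Among them, array 3 of wild type day 2 correlated at 0.50 with its own group and at 0.87 with E2F3 +/- day 4. Array 3 of E2F3 +/- day 4 correlated at -0.04 with its own group, and array 1 of E2F3 +/- day 3 at -0.11. Results were recomputed without the first pair of these arrays, a choice made after seeing the data, and without each array in turn. Luminal epithelium markers had group means of 2.08 to 4.62 above the array median. The number of arrays limits the precision.

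Gpnmb was low at lactation and day 1 and highest in wild type glands at day 4. In wild type glands the deposited ratios were 0.045 and 0.119 at lactation, with the other array listed at 0, and 0.046 and 0.040 at day 1, again with 1 array listed at 0. They were 0.233, 0.364 and 0.362 at day 2, then 0.151, 0.228 and 0.194 at day 3, and 0.830, 1.145 and 0.663 at day 4. All 9 wild type arrays from day 2 on lay above every wild type array of lactation and day 1 that had a value, and the day 4 arrays lay above all others. In E2F3 +/- glands the ratios were 0.044, 0.042 and 0.077 at lactation, 0.069, 0.051 and 0.044 at day 1, and 0.046, 0.041 and 0.030 at day 2. They were 0.072, 0.287 and 0.261 at day 3 and 0.567, 0.164 and 0.052 at day 4. No E2F3 +/- array stood above the range of its lactation arrays by day 2, and at days 3 and 4 a single array of each group stayed within that range. On the log2 scale the wild type day 4 mean exceeded lactation by 3.39 ± 0.64 (standard error of the limma fit), 10.5-fold. The E2F3 +/- day 4 mean exceeded its lactation mean by 1.45 ± 0.57, 2.74-fold, a value that ran from 0.60 without array 1 to 2.24 without array 3 of that group.

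Galectin-3 showed the largest day 4 difference from lactation among the member probes measured on all 30 arrays. Its first probe, M300021033, read 0.062, 0.034 and 0.038 in wild type lactation and 0.083, 0.064 and 0.074 at day 1. It read 0.470, 0.556 and 0.316 at day 2, 0.366, 0.697 and 0.540 at day 3, and 0.921, 1.751 and 0.561 at day 4. The step between day 1 and day 2 separated the wild type arrays completely, and after centring the 3 later groups overlapped each other. The E2F3 +/- arrays of this probe read 0.026, 0.029 and 0.032 at lactation, 0.080, 0.045 and 0.026 at day 1, and 0.108, 0.135 and 0.096 at day 2. It read 0.219, 0.310 and 0.480 at day 3 and 0.540, 0.305 and 0.165 at day 4. The E2F3 +/- day 2 arrays lay between those of day 1 and those of day 3, without overlap with either, whereas days 3 and 4 overlapped. At day 4 the excess over lactation was 20.2-fold in wild type glands (log2 4.34 ± 0.43) and 8.79-fold in E2F3 +/- glands (3.14 ± 0.43). The second probe, M300021034, gave 18.6-fold and 8.79-fold, and over the 30 arrays the log2 values of the probes differed by -0.79 to 0.54 with a median of -0.03.

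Pltp fell below its lactation level at wild type day 1 before it rose. Probe M200002289 read 2.685, 1.802 and 1.543 at wild type lactation and 1.163, 1.164 and 0.772 at day 1. At day 2 it read 6.585, 22.470 and 10.840, at day 3 it read 6.592, 7.237 and 6.537, and at day 4 it read 11.090, 9.140 and 6.700. The 3 day 1 arrays lay below all 3 lactation arrays, and all 9 later arrays lay above them. In E2F3 +/- glands the same probe read 1.216, 0.893 and 0.713 at lactation, 1.811, 1.329 and 1.062 at day 1, and 2.241, 3.144 and 1.745 at day 2. It read 2.909, 6.263 and 7.052 at day 3 and 11.300, 6.318 and 6.219 at day 4. Here no dip at day 1 was seen, since the day 1 arrays overlapped those of lactation and their mean was higher by 0.48 ± 0.38 on the log2 scale. At wild type day 1 the mean was lower than at lactation by 2.09-fold, and at day 4 it exceeded lactation 4.05-fold in wild type and 7.02-fold in E2F3 +/- glands. At lactation all 3 E2F3 +/- arrays lay below all 3 wild type arrays for this probe, a difference that did not pass the test given further on.

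The second Pltp probe, M300001607, moved the same way over a narrower range. In wild type glands it read 1.753, 1.621 and 1.447 at lactation, 0.814, 0.837 and 0.667 at day 1, and 3.147, 8.412 and 1.515 at day 2. At day 3 it read 3.031, 3.314 and 3.882, and at day 4 it read 5.845, 4.682 and 4.189. The deposited ratio of day 2 array 3 fell within the lactation range here, although the first probe placed it far above, and that array gave the widest gap between the probes, 2.84 on the log2 scale against a median gap of 0.71. In E2F3 +/- glands the ratios ran from 0.793 to 1.182 over lactation and day 1, and they were 1.570, 2.462 and 1.247 at day 2. They were 2.689, 1.400 and 3.814 at day 3 and 3.223, 2.108 and 2.382 at day 4. The excess of day 4 over lactation was 2.73-fold in wild type and 2.28-fold in E2F3 +/- glands.

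Apoc1 scattered widely between mice of a group. Its wild type ratios were 7.4, 13.2 and 18.3 at lactation, 2.1 and 4.5 at day 1 with 1 array listed at 0, and 50.2, 114.3 and 18.7 at day 2. They were 15.6, 12.4 and 9.2 at day 3 and 8.7, 53.0 and 30.2 at day 4. Only day 1 stood apart from lactation, 4.24-fold lower, and after centring the arrays of days 2, 3 and 4 overlapped those of lactation. E2F3 +/- glands had Apoc1 ratios of 7.0 and 1.5 at lactation with 1 array listed at 0, 4.2, 5.3 and 6.6 at day 1, and 17.3, 14.9 and 3.1 at day 2. They were 9.0, 32.5 and 23.6 at day 3 and 36.0, 23.1 and 11 at day 4. Days 3 and 4 lay above the 2 lactation arrays with a value, and the day 4 excess was 5.49-fold (log2 2.46 ± 0.86). It was 1.36 without lactation array 2 and 3.56 without lactation array 1.

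Retnla had the largest day 4 difference from lactation in both genotypes among the 7 probes, and also the largest scatter. In wild type glands it read 3.5, 1.7 and 13.1 at lactation, 3.1 and 11.7 at day 1 with 1 array listed at 0, and 43.3, 3.4 and 143.9 at day 2. It read 18.4, 74.6 and 4.0 at day 3 and 74.0, 202.8 and 122.4 at day 4. Only the day 4 arrays cleared the lactation range. In E2F3 +/- glands it read 16.2, 2.0 and 1.9 at lactation, 52.5, 4.6 and 4.7 at day 1, and 20.3, 51.6 and 11.4 at day 2. It read 66.9, 117.0 and 245.0 at day 3 and 262.7, 282.0 and 37.1 at day 4. Both of these groups lay above all lactation arrays of the genotype. The day 4 mean exceeded lactation 25.8-fold in wild type (log2 4.69 ± 1.24) and 29.97-fold in E2F3 +/- glands (4.91 ± 1.24). Leaving out lactation array 2 gave 4.03 and lactation array 3 gave 5.51 in wild type, and leaving out lactation array 3 gave 4.39 and lactation array 1 gave 5.91 in E2F3 +/- glands. All 22 Retnla ratios from 1 to 100 and all 27 such Apoc1 ratios were whole multiples of 0.1, against 2 of 27 and 1 of 23 for the Pltp probes. Over the whole table, 106 of 3861 probes with at least 10 ratios in that range had 90% or more on this step. No spot intensities were used, and the cause of the step was not tested.

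**Figure D1:**
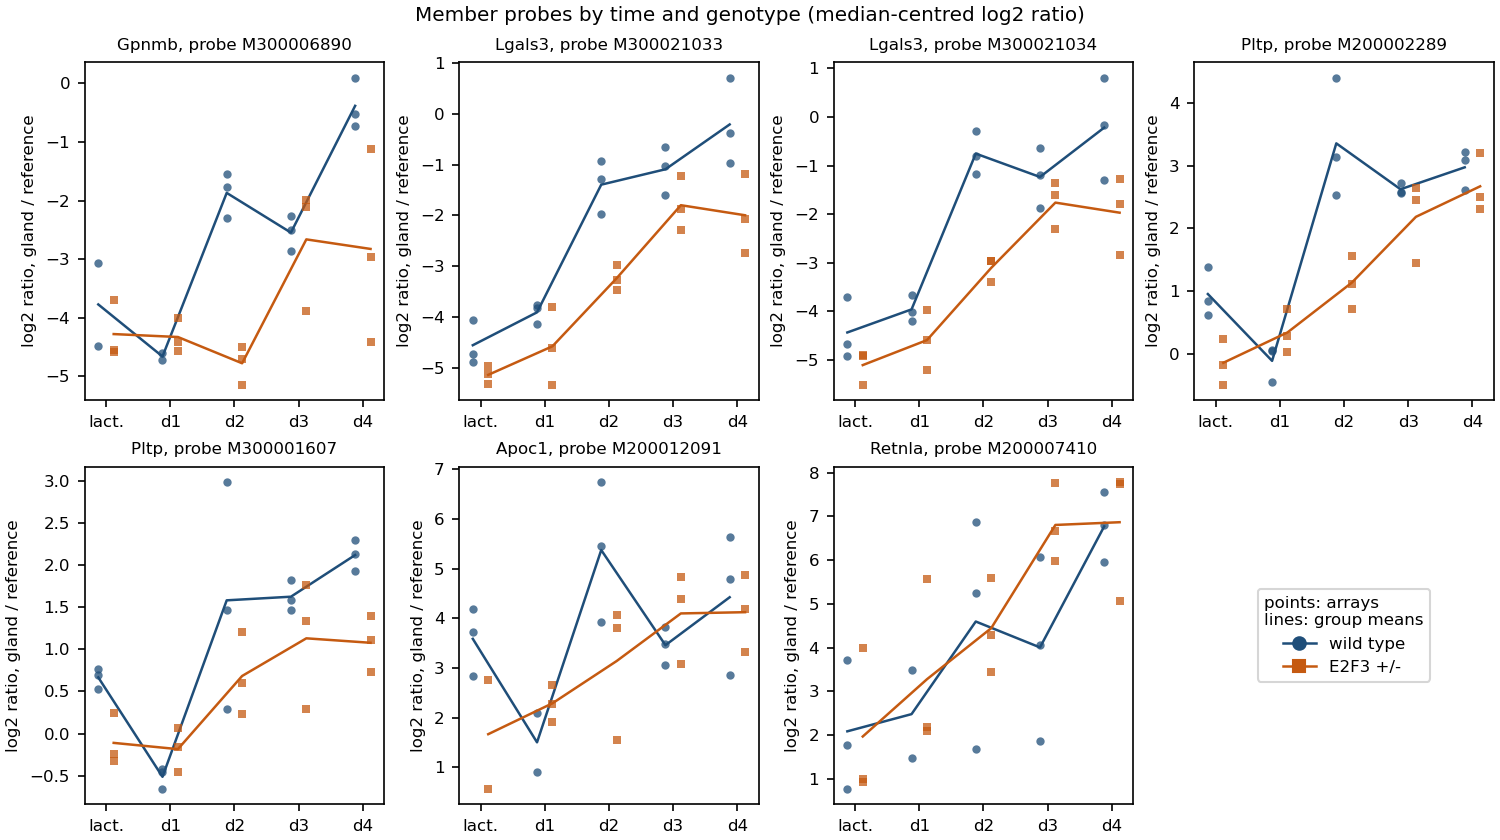
Median-centred log2 ratio of gland to reference (y axis) for the 7 member probes at lactation and involution days 1 to 4 (x axis), with 1 point per array and lines through the group means of wild type (circles) and E2F3 +/- (squares) glands. The wild type arrays of Gpnmb, Lgals3 and Pltp probe M200002289 lie above all E2F3 +/- arrays at day 2, whereas those of Retnla overlap.

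Counted over the probes, the arrays of a day lay wholly above those of lactation for 0 of 7 at wild type day 1, where 31.3% of all tested probes did so. The count was 4 at day 2 (32.5% of all tested probes), 5 at day 3 (36.3%) and 6 at day 4 (32.6%). The E2F3 +/- counts over the same 4 days were 0 (36.4%), 3 (39.2%), 6 (38.3%) and 6 (35.2%). Nothing is read from these shares, because the change from lactation was taken as used in the choice of the genes. At wild type day 1, 4 probes lay wholly below lactation: Gpnmb, both Pltp probes and Apoc1. Gpnmb had values on 2 arrays of either group and Apoc1 on 2 of the day 1 arrays, where such separation comes more easily. No share of all tested probes wholly below lactation is given, so nothing is read from this count either. In the order of the 10 group means, wild type day 4 was highest for Gpnmb, both Lgals3 probes and Pltp probe M300001607. Wild type day 2 was highest for Pltp probe M200002289 and Apoc1, and E2F3 +/- day 4 for Retnla. Most neighbours in these orders overlapped, and the top group cleared the second only for Gpnmb and Pltp probe M300001607.

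E2F3 +/- glands held less of the Gpnmb, Lgals3 and Pltp signal than wild type glands at involution day 2. In the limma fit over all 5010 tested probes, 4 of the 7 probes passed at an adjusted p under 0.05 (Benjamini-Hochberg), all 4 lower in E2F3 +/- glands, with 3 mice per group. Over all tested probes 12.7% passed at day 2 in either direction and 5.57% passed as lower. Gpnmb was 7.49-fold lower (log2 -2.91 ± 0.57, limma adjusted p = 0.00434). Its E2F3 +/- ratios there, 0.030 to 0.046, lay near 0.02, the lowest ratio not taken as missing, so the size of this fold is uncertain. Pltp probe M200002289 was 4.66-fold lower (-2.22 ± 0.38, limma adjusted p = 0.00143). For Lgals3 the probes gave 3.58-fold (-1.84 ± 0.43, limma adjusted p = 0.00908) and 5.11-fold (-2.35 ± 0.47, limma adjusted p = 0.00376). For each of these 4 probes all 3 E2F3 +/- arrays lay below all 3 wild type arrays, as the ratios above show. Pltp probe M300001607 had -0.90 ± 0.43 (limma adjusted p = 0.151) and Apoc1 had -2.23 ± 0.77 (limma adjusted p = 0.0579). Without array 3 of wild type day 2, both passed, at -1.54 (limma adjusted p = 0.021) and -2.96 (0.0348). Without that array and array 3 of E2F3 +/- day 4 the day 2 count was 6 of 7. Lgals3 probe M300021033 no longer passed without array 3 of E2F3 +/- day 2 (limma adjusted p = 0.0531). Retnla had -0.15 ± 1.24 at day 2 (limma adjusted p = 0.942), with arrays from 3.4 to 143.9 in wild type and from 11.4 to 51.6 in E2F3 +/- glands, a spread within which a difference of several fold was not detectable.

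At lactation 0 of 7 probes passed (0.379% of all tested probes did), and 2 had an unadjusted p under 0.05. For such unadjusted counts, here and below, no share of all tested probes is given, and nothing is read from them. The 7 estimates were all below 0. The largest was Apoc1 at -1.92 ± 0.86 (limma adjusted p = 0.607), with values on 2 of the E2F3 +/- arrays. The largest of those with 3 mice on each side was Pltp probe M200002289 at -1.10 ± 0.38 (limma adjusted p = 0.321). At day 1, 0 of 7 passed and 0 had an unadjusted p under 0.05 in the limma fit, with 0.659% passing over all tested probes. At day 3, 0 of 7 passed, as did 0.0% of all tested probes, and 1 had an unadjusted p under 0.05: Retnla, higher in E2F3 +/- glands by 2.80 ± 1.24 (limma adjusted p = 0.358). The day 3 ratios of Retnla overlapped between the genotypes through the wild type array at 74.6. With array weights the Retnla difference was 3.89 and passed (limma adjusted p = 0.00722).

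At day 4, 2 of 7 probes passed against 1.12% of all tested probes. Gpnmb was 5.43-fold lower in E2F3 +/- glands (-2.44 ± 0.57, limma adjusted p = 0.0396), and Lgals3 probe M300021033 was 3.44-fold lower (-1.78 ± 0.43, limma adjusted p = 0.0396). In both, all 3 E2F3 +/- arrays lay below all 3 wild type arrays. The other Lgals3 probe had -1.75 ± 0.47 (limma adjusted p = 0.0661), Pltp -0.30 ± 0.38 and -1.04 ± 0.43 (limma adjusted p = 0.716 and 0.223), Apoc1 -0.30 ± 0.77 (0.875) and Retnla 0.10 ± 1.24 (0.979). Both calls depended on the processing. Neither passed when the arrays were left uncentred (limma adjusted p = 0.055 for each), and with array weights the differences shrank to -0.81 for Gpnmb and -0.54 for Lgals3 (limma adjusted p = 0.104 and 0.165). Without array 2 of wild type day 4 the adjusted p in limma was 0.12 for Gpnmb and 0.151 for Lgals3. The count was also 0 without array 1 of wild type day 4, array 2 of E2F3 +/- day 4, array 1 or array 2 of E2F3 +/- lactation, array 2 of E2F3 +/- day 1 or array 1 of E2F3 +/- day 2. Without array 3 of E2F3 +/- day 4, the array set apart from its group, the difference of Gpnmb was -1.65 and that of Lgals3 probe M300021033 was -1.41, and the count was 2 when array 3 of wild type day 2 was left out too.

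Averaged over the 5 times, 3 of 7 probes were lower in E2F3 +/- glands, against 0.619% of all tested probes that passed. These were both Lgals3 probes, at -1.12 ± 0.19 (limma adjusted p = 0.0047) and -1.19 ± 0.21 (0.00571), and Pltp probe M200002289 at -0.72 ± 0.17 (0.046). Galectin-3 was thus the only member with each of its probes passing in this contrast, and it passed without each array in turn. The other probes did not pass: Gpnmb had -1.13 ± 0.27 (limma adjusted p = 0.0517), the other Pltp probe -0.58 ± 0.19 (0.173), Apoc1 -0.61 ± 0.36 (0.512) and Retnla 0.69 ± 0.57 (0.667). Without array 3 of wild type day 2 the count was 5. The call for Pltp was lost with quantile normalization (limma adjusted p = 0.0567), with missing values set to the lowest other value (0.0827) and with a looser filter (0.0538), and leaving out single arrays took its adjusted p up to 0.0913.

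**Figure D2:**
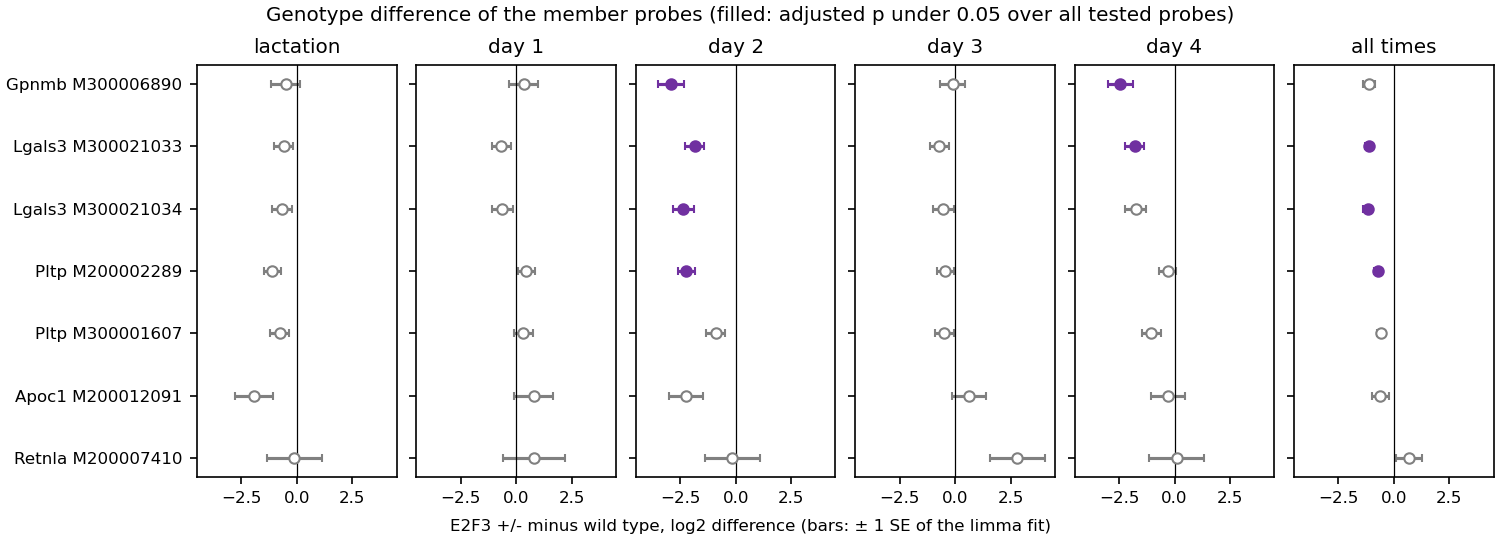
Log2 difference of E2F3 +/- minus wild type glands (x axis) for the 7 member probes (y axis) at each time and averaged over the 5 times, with bars of 1 standard error of the limma fit and filled points where the adjusted p was under 0.05. The filled points are all left of 0, with 4 at day 2, 2 at day 4 and 3 over all times.

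Whether the genotypes followed different courses was tested with an F test over the 4 differences between their changes from lactation. It passed for 2 of 7 probes, against 5.91% of all tested probes: Gpnmb (limma F = 5.604, adjusted p = 0.0495) and Pltp probe M200002289 (limma F = 6.976, adjusted p = 0.0295). The E2F3 +/- change of Gpnmb minus the wild type change was -2.40 ± 0.86 at day 2 and -1.94 ± 0.86 at day 4 on the log2 scale. For this Pltp probe the same difference was 1.55 ± 0.54 at day 1 and -1.13 ± 0.54 at day 2, so its sign turned between them. Taken day by day, 0 of 7 probes passed at an adjusted p under 0.05 at any of the 4 days in limma. Over all tested probes 0.379%, 0.0%, 0.24% and 0.319% passed at days 1 to 4. The unadjusted p in limma was under 0.05 for 2, 4, 1 and 1 of the 7 member probes at these days. The share of all tested probes at that unadjusted threshold is not given, so nothing is read from these counts. The Lgals3 probes did not pass the F test (limma adjusted p = 0.234 and 0.133), so a change in their time course between the genotypes was not shown in that fit. Probe M300021034 passed with quantile normalization (limma adjusted p = 0.0445) and with array weights (0.0221). The count of 2 fell to 0 without wild type day 1 array 3, wild type day 2 array 3, E2F3 +/- day 1 array 1, E2F3 +/- day 2 array 1 or E2F3 +/- day 2 array 3, and to 1 without most of the other arrays.

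From day 2 on, most macrophage markers stood above lactation in both genotypes, as the means of most member probes did. Most fibroblast markers did so too. The member means below lactation were those of Gpnmb at E2F3 +/- day 2 (-0.50 ± 0.57) and Apoc1 at wild type day 3 (-0.13 ± 0.77). The macrophage list gave 15 tested probes of 14 genes, and relative to lactation 14 were higher at wild type day 2 with a median of 2.76 on the log2 scale. At wild type day 4 there were 14 (median 2.89), at E2F3 +/- day 2 there were 12 (1.87) and at E2F3 +/- day 4 there were 15 (2.96), and 0 were lower in these 4 comparisons. At day 1 there were 2 in wild type (median -0.19) and 4 in E2F3 +/- glands (0.85), and at day 3 there were 14 (2.42) and 15 (2.79). Of 16 tested fibroblast probes, 1, 15, 12 and 15 were higher at wild type days 1 to 4, and 8, 14, 16 and 16 in E2F3 +/- glands, with 0 lower. Their medians at day 4 were 1.58 and 2.01. Over all tested probes 31.8% rose and 33.4% fell at wild type day 2, with 25.4% and 31.0% at wild type day 4. The shares were 23.7% and 22.2% at E2F3 +/- day 2 and 33.2% and 37.4% at E2F3 +/- day 4. At day 1 they were 18.5% and 18.2% in wild type and 23.2% and 20.3% in E2F3 +/- glands, and at day 3 they were 17.4% and 21.6%, then 34.2% and 32.7%. Lyz1, a lysozyme gene on the macrophage list, rose by 3.50 ± 0.62 in wild type and 3.99 ± 0.62 in E2F3 +/- glands at day 4 (limma adjusted p = 0.00011 and 1.73e-05). Lyz1 and Lyz2 are close copies, and their probes may read each other.

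At day 2 the markers of macrophages were also lower in E2F3 +/- glands, in 9 of the 15 probes, with 1 higher and a median of -1.74. Lyz1 (-3.44 ± 0.62, limma adjusted p = 0.00216), the cathepsin gene Ctss (-2.32 ± 0.48, 0.00497) and Tyrobp, an adaptor of activating receptors (-1.64 ± 0.27, 0.00111), were among the 9. Cd14, the co-receptor for bacterial lipopolysaccharide, was the exception and was higher in E2F3 +/- glands (2.00 ± 0.60, limma adjusted p = 0.0344). Without array 3 of E2F3 +/- day 2 the count was 5, and without array 3 of wild type day 2 and array 3 of E2F3 +/- day 4 it was 12. Adgre1, Cd163, Fcgr2b, Fcgr3 and Ly86 were on the array but not tested, and each was listed at 0 on 4 to 8 arrays. The mean level of the markers with a value on all arrays was 3.29, 3.51 and 4.89 in wild type and 1.66, 2.23 and 2.23 in E2F3 +/- glands at day 2. At day 4 it was 3.42, 3.61 and 4.05 against 2.67, 2.95 and 3.79. Of the other cell type lists at day 2, 5 of 16 fibroblast probes were lower and 0 higher (median -0.94), 2 of 10 adipocyte probes were lower and 1 of 9 luminal epithelium probes was higher. Both probes of Lcn2, a gene of neutrophils and epithelium, were higher, and 0 of 13 skeletal muscle probes passed in limma (median -0.59). The part of macrophage content, or of any other cell type, in the genotype differences of the members was not tested.

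**Figure D3:**
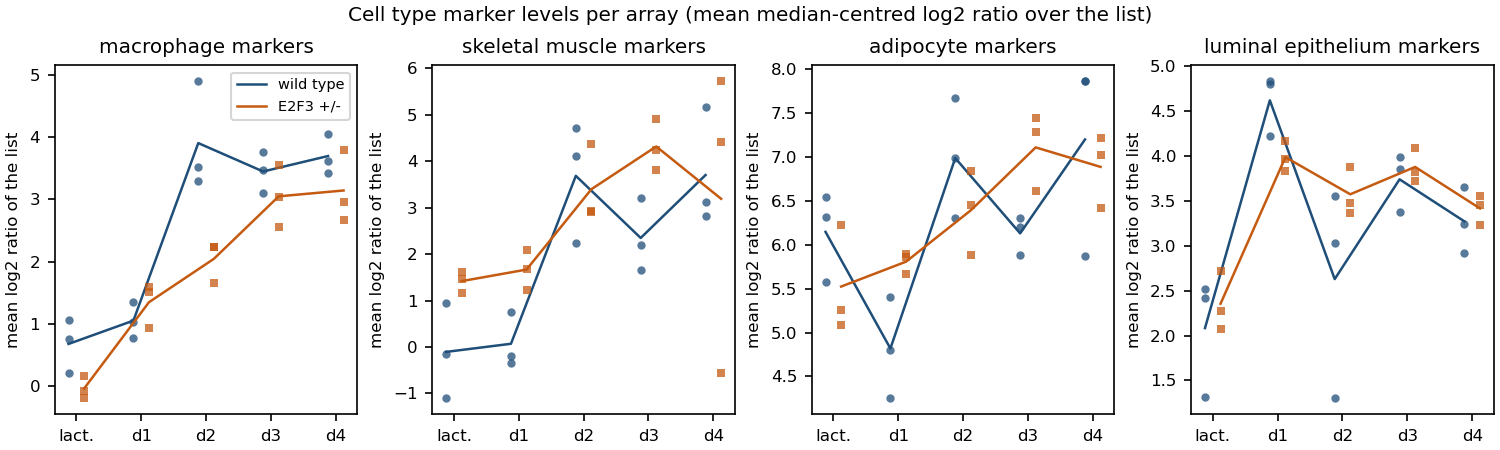
Mean median-centred log2 ratio (y axis) of the macrophage, skeletal muscle, adipocyte and luminal epithelium marker lists on every array at lactation and involution days 1 to 4 (x axis), with lines through the group means. Each level is the mean over the list probes with a value on all arrays. Macrophage markers at day 2 are 3.29 to 4.89 in wild type and 1.66 to 2.23 in E2F3 +/- glands, and skeletal muscle markers are widely scattered, down to -0.56 on array 3 of E2F3 +/- day 4.

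Set against the macrophage marker level of the same array, the members differed from each other. At day 2, Lgals3 probe M300021033 lay at -5.30 ± 0.65 (SD, n = 3) in wild type and -5.28 ± 0.19 in E2F3 +/- glands on this relative log2 scale. Its probe M300021034 lay at -4.66 ± 0.55 against -5.15 ± 0.07, with overlapping arrays. Pltp probe M200002289 lay at -0.55 ± 0.20 against -0.91 ± 0.23, with overlapping arrays, and Pltp probe M300001607 went the other way, at -2.32 ± 0.78 against -1.36 ± 0.31 without overlap. Gpnmb lay at -5.77 ± 0.60 in wild type, from -6.44 to -5.29, and at -6.82 ± 0.10 in E2F3 +/- glands, from -6.93 to -6.72, so that the groups did not overlap. The E2F3 +/- ratios of Gpnmb at day 2 lay near the lowest ratio not taken as missing, which limits the reading of this relative level. Apoc1 lay at 1.475 ± 0.94 against 1.10 ± 1.06 at day 2 and Retnla at 0.69 ± 3.46 against 2.40 ± 0.85, both with overlapping arrays. At day 4 the relative level of Gpnmb was -4.08 ± 0.22 against -5.97 ± 1.09 and that of Lgals3 probe M300021033 was -3.90 ± 0.63 against -5.14 ± 0.24, again without overlap. Lgals3 probe M300021034 overlapped there, at -3.91 ± 0.88 against -5.11 ± 0.39. Both Pltp probes, Apoc1 and Retnla also overlapped between the genotypes at day 4. These relative levels are descriptions and were not tested.

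Over the 10 group means, the probes nearest to Lgals3 and Pltp included several of macrophage genes. With the mean level of the macrophage markers the Lgals3 probes correlated at 0.96 and 0.97, and with that of the fibroblast markers at 0.93 and 0.94. Pltp probe M200002289 correlated at 0.95 with macrophage and at 0.96 with fibroblast markers. The probes nearest to Lgals3 were those of the complement gene C1qc (r = 0.98 for both Lgals3 probes) and the macrophage perforin-like gene Mpeg1 (0.97 and 0.98). The metalloproteinase gene Mmp14 came among the first 5 for both (0.96 and 0.97). Axl, a receptor for dead cells, and Csf1r, the receptor of the macrophage growth factor, completed the first 5 of probe M300021033 (0.96 each), and Emp3 and Ctss those of M300021034 (0.97 each). The nearest to Pltp probe M200002289 were the 2 Lyz1 probes (0.98 each), Ctss, Mpeg1 and the adhesion gene Vcam1 (0.98 each). For Pltp probe M300001607 the nearest was Apoe (0.97), which encodes the apolipoprotein of macrophage lipid export, then Fcgrt (0.96), Mpeg1 (0.95), the class II gene H2-Aa (0.94) and Mmp2 (0.94). Gpnmb was nearest to Arxes2 (0.96), Apoe (0.93), Gatm (0.92), Mmp2 (0.91) and Rab8b (0.90). All these correlations have n = 10 groups that share the reference and the centring.

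Apoc1 and Retnla were nearest to other genes. Apoc1 was nearest to Col16a1 and Hsd11b1 (0.98 each), Fermt3 (0.97), Arhgap45 (0.97) and Smarcd3 (0.96), and of the lists it was nearest to the adipocyte markers (0.91). Of 10 tested adipocyte probes, 5 were higher and 2 lower than lactation at wild type day 4, and 6 and 3 at E2F3 +/- day 4. Over all tested probes the shares were 25.4% and 31.0%, then 33.2% and 37.4%. Cidea differed by -3.72 and -4.78 there and Pck1 by 4.00 and 4.40. The list thus holds opposite changes, which limits the reading of its level. Retnla was nearest to the glycolytic gene Aldoa (0.985), to Slc25a4 (0.97), C030006K11Rik (0.95), Pgm1 (0.95) and Pkm (0.95). With the other 6 member probes Retnla correlated at 0.68 to 0.80, whereas the Lgals3 and Pltp probes correlated with each other at 0.91 to 0.95. With the level of the lists, Retnla correlated at 0.91 for alternative activation, 0.86 for skeletal muscle, 0.84 for adipocytes, 0.84 for fibroblasts and 0.81 for macrophages. A level is the mean over the list probes with a value on all arrays. That left 5 of 8 tested probes for alternative activation, 4 of 13 for muscle, 8 of 10 for adipocytes, 12 of 16 for fibroblasts and 12 of 15 for macrophages. Most canonical macrophage genes of alternative activation were not among the 5. These are correlations over group means, given as a description.

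In some groups the mice with more Retnla were also those with higher skeletal muscle markers, and in others they were not. At wild type day 2 the muscle level was 4.11, 2.23 and 4.71 on the log2 scale on the arrays where Retnla read 43.3, 3.4 and 143.9. At E2F3 +/- day 4 it was 4.40, 5.72 and -0.56 where Retnla read 262.7, 282.0 and 37.1. In both groups the array with the least muscle signal was the array with the least Retnla. The order also matched at day 3 of both genotypes. At wild type day 4, by contrast, the muscle level was 2.81, 3.12 and 5.17 where Retnla read 74.0, 202.8 and 122.4, an order that does not match. At lactation the order was the reverse, with muscle at -0.16, 0.95 and -1.10 where Retnla read 3.5, 1.7 and 13.1 in wild type, and at 1.16, 1.47 and 1.62 where it read 16.2, 2.0 and 1.9 in E2F3 +/- glands. At E2F3 +/- day 2 the muscle level was 4.37, 2.92 and 2.90 where Retnla read 20.3, 51.6 and 11.4, and the highest of each fell on different arrays. At E2F3 +/- day 1 it was 2.09, 1.68 and 1.23 where Retnla read 52.5, 4.6 and 4.7. At wild type day 1 it was -0.35 and 0.75 on the arrays where Retnla read 3.1 and 11.7. The gland has no skeletal muscle of its own, and 11 of 13 tested muscle probes were higher at wild type day 2 than at lactation, 4 at day 3 and 12 at day 4. The E2F3 +/- counts over these 3 days were 2, 8 and 3. Over all tested probes the shares higher were 31.8%, 17.4% and 25.4% in wild type and 23.7%, 34.2% and 33.2% in E2F3 +/- glands. Adipocyte markers were at 6.98, 6.31 and 7.67 at wild type day 2 and at 6.45, 6.84 and 5.89 at E2F3 +/- day 2, the order of Retnla in both. In the other groups with 3 Retnla values the adipocyte order did not match in full. At wild type day 3, for example, it was 6.31, 6.20 and 5.88 where Retnla read 18.4, 74.6 and 4.0. At days 2 to 4 of both genotypes, however, the array with the least adipocyte signal was also the array with the least Retnla. Muscle signal was least on these same arrays. Neither match held at lactation or at E2F3 +/- day 1. The part of neighbouring muscle, of tissue attached to it or of adipocytes in the Retnla ratios was not tested.

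**Figure D4:**
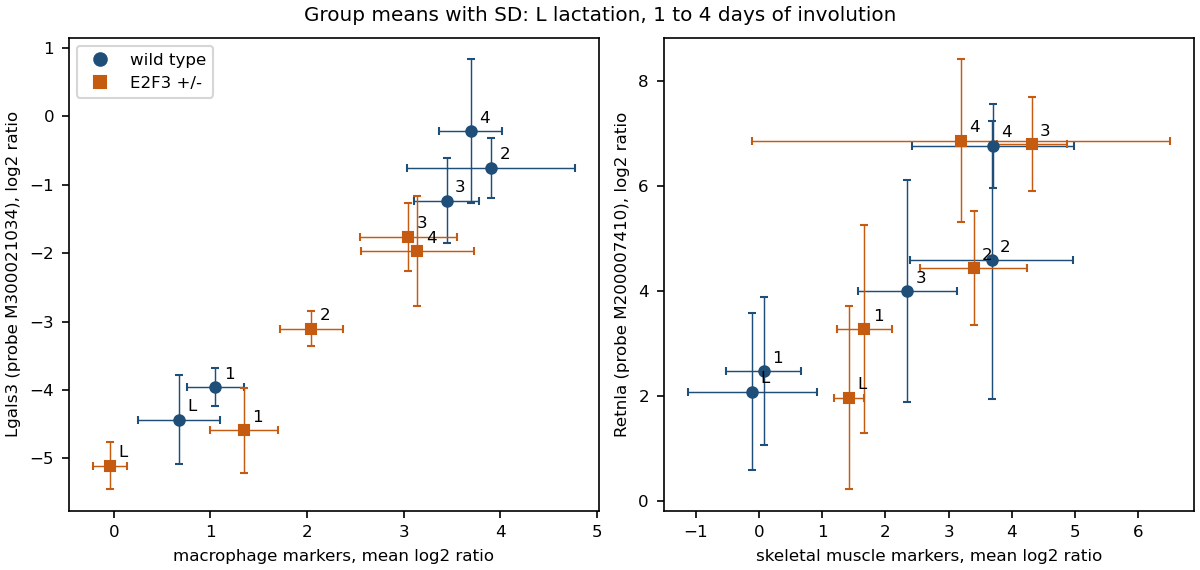
Group mean log2 ratio of Lgals3 probe M300021034 against the macrophage marker level (left) and of Retnla against the skeletal muscle marker level (right), with bars of 1 SD over arrays, L for lactation and digits for the day of involution. The Lgals3 points follow the macrophage level with r = 0.97 over 10 groups, and the Retnla points follow the muscle level with r = 0.86 and wide bars.

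Other genes of lipoprotein and sterol handling moved in both directions. Of 11 tested probes of 10 genes, 6 were higher and 1 lower than at lactation at wild type day 4 (median 1.12), and 5 were higher and 2 lower in E2F3 +/- glands (median 0.82). At day 2 the counts were 5 and 3 in wild type and 3 and 2 in E2F3 +/- glands. Over all tested probes 25.4% were higher and 31.0% lower at wild type day 4, and 33.2% and 37.4% at E2F3 +/- day 4. At day 2 the shares were 31.8% and 33.4% in wild type and 23.7% and 22.2% in E2F3 +/- glands. Between the genotypes 12.7% passed at day 2 and 1.12% at day 4. The same shares apply to the lists that follow. Apoe rose by 2.57 ± 0.54 in wild type and 1.32 ± 0.54 in E2F3 +/- glands at day 4 (limma adjusted p = 0.000506 and 0.0324). Mylip, which encodes a ligase that degrades the low density lipoprotein receptor, rose by 2.22 ± 0.28 and 2.41 ± 0.28 (limma adjusted p = 1.53e-06 and 3.78e-07). Vldlr, a receptor for triglyceride-rich lipoproteins, rose by 1.12 ± 0.44 and 1.53 ± 0.44 (limma adjusted p = 0.0365 and 0.00464). Between the genotypes, 0 of these probes were higher and 3 lower in E2F3 +/- glands at day 2, namely Vldlr (-2.02 ± 0.44, limma adjusted p = 0.00728) and both probes of the lipase gene Lpl (-1.77 ± 0.37 and -1.34 ± 0.36, 0.00534 and 0.0182). At day 4 Lrp1, a receptor for lipoproteins and for dead cell bridging proteins, was lower (-1.66 ± 0.40, limma adjusted p = 0.0395), and at day 1 Mylip was higher (1.22 ± 0.28, 0.0367). Abcg1, Apoc2, Cyp27a1, Nr1h3 and Trem2 were not tested for lack of values.

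Of the alternative activation list, 8 probes of 7 genes were tested, and most canonical macrophage members of that state were not among them. At day 4, 4 were higher and 1 lower in wild type glands (median 1.42) and 6 were higher and 1 lower in E2F3 +/- glands (median 1.98). Those that rose included Fn1, which encodes fibronectin (1.64 ± 0.39 and 2.76 ± 0.39, limma adjusted p = 0.00142 and 4.51e-06), and the scavenger receptor gene Stab1 (1.97 ± 0.68 and 2.33 ± 0.68, 0.0198 and 0.00523). The probes of Pparg, a nuclear receptor of adipocytes and macrophages, went against each other. M300000074 fell by 2.28 and 2.38 on the log2 scale (limma adjusted p = 0.000438 and 0.000513), and M200001158 had 1.30 ± 0.59 in wild type (0.0632) and rose by 1.97 ± 0.59 in E2F3 +/- glands (0.00581). Cdh1, Fn1 and Pparg are also made by cells other than macrophages. Between the genotypes 0 of the 8 probes passed at day 2 in limma, with a median difference of -0.77. The classical activation list had 4 tested probes, of which 3 were higher at wild type day 4 and 4 at E2F3 +/- day 4. Of these, Irf1 (-1.73 ± 0.34, limma adjusted p = 0.00374) and the chemokine gene Ccl5 (-2.36 ± 0.71, 0.0338) were lower in E2F3 +/- glands at day 2. No gene of the resistin family other than Retnla was on the array under the symbols searched.

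Among galectins and genes for the clearance of dead cells, 12 of 21 tested probes were higher and 5 lower at wild type day 4, and 11 higher and 5 lower at E2F3 +/- day 4. Gas6, which bridges dead cells to phagocyte receptors, rose by 2.78 ± 0.47 and 3.70 ± 0.47 (limma adjusted p = 5.9e-05 and 1.33e-06), and Cd36, a scavenger receptor that the lactating gland also makes, fell by 3.01 and 4.71 on the log2 scale (0.00113 and 7.78e-06). At day 2 the galectin-1 gene Lgals1 was lower in E2F3 +/- glands (-1.36 ± 0.40, limma adjusted p = 0.0284), as Lgals3 was, while the epithelial galectin-7 gene Lgals7 was higher (2.30 ± 0.56, 0.012). Tyro3, a receptor of the Axl family, Cd36 and Cd14 were higher too (limma adjusted p = 0.00607, 0.0459 and 0.0344). Of 26 lysosome probes, 16 were higher and 3 lower at wild type day 4, and 12 were higher and 4 lower at E2F3 +/- day 4. At day 2, 3 were higher and 4 lower in E2F3 +/- glands. Lgmn, the gene of a lysosomal endopeptidase of macrophages, was lower (-2.04 ± 0.36, limma adjusted p = 0.0015), and Ctsl and 2 of 3 probes of Lamp2 were higher (1.86 ± 0.42, 1.05 ± 0.23 and 1.08 ± 0.24, 0.0075, 0.00715 and 0.00664). The other Lamp2 probe had 0.96 ± 0.49 (limma adjusted p = 0.173). Of 10 tested probes for macrophage growth and polarising signals, 1 differed at day 2: Stat3, higher by 1.75 ± 0.51 (limma adjusted p = 0.0282).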

How the data were processed

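Total RNA of 30 mammary glands, labelled Cy5 per the labels, was hybridised with a Cy3-labelled mouse reference RNA after amplification. The authors deposited 1 table of linear ratios, with no spot intensities used here; the steps behind these ratios (background, normalization, any floor) were not given in the sources used here. Array medians over all deposited values were 0.804 to 1.083. Ratios listed at 0 (13146) or 0.01 (1223) were taken as missing, the rest were log2 transformed and centred on the array median. A probe was tested if each group gave values from 2 or more of its 3 arrays, which held for 5010 of 6267 probes, 3968 of them with values on all 30 arrays. The platform annotation gave 3997 probes 1 gene symbol, 115 several and 2155 none. All 10 group means were fitted in 1 limma model (limma 3.58.1, R 4.3.3, 20 residual degrees of freedom), with Benjamini-Hochberg adjustment over all tested probes and a threshold of 0.05. Probes of a gene were kept apart. Tables and figures were made with Python 3.11.15, pandas 2.3.3, numpy 2.4.6 and matplotlib 3.10.9.

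The members and the gene lists were chosen with earlier results of these data known. Genes named beside the members are the up to 3 (cell types: 2) per list that passed at day 4 in the same direction in both genotypes with the largest mean change, the 5 of highest Pearson r with a member over the group means, and list probes that passed a genotype contrast. Beyond this rule, the second Pparg probe and genes not tested were named after their values were seen, and not every gene the rule gives is printed. Macrophage, epithelial, adipocyte, fibroblast, muscle and other marker lists were read in the same fit. The genotype test at day 4 was tested on simulated data on 5010 probes: it recovered 12% of 1.5-fold, 38% of 2-fold, 84% of 4-fold and 94% of 8-fold changes. The simulated noise was independent between arrays with the same spread in every group. It held no array set apart from its group, as array 3 of E2F3 +/- day 4 was, so these shares may be too high for the real groups. The labels say that 3 mice were taken per genotype and time. Alternatives were no centring, quantile normalization, missing values set to the lowest other ratio, other filters, array weights, fewer groups in the fit, a trend, a replicate block and leaving out arrays. The alternative that left out 2 arrays was added after seeing the data.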

Additional observations from a re-analysis of the deposited data

Results flagged for a closer look

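The course of 2 member probes from lactation differed between wild type and E2F3 +/- glands in the F test of genotype by time. For Gpnmb the limma F was 5.604 (adjusted p = 0.0495), and leaving out single arrays moved the adjusted p from 0.0103 to 0.117. For Pltp probe M200002289 the limma F was 6.976 (adjusted p = 0.0295), with an adjusted p of 0.00714 to 0.0941 over the same 30 fits. Its other probe, M300001607, had a limma F of 1.632 (adjusted p = 0.357).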

How the results depend on the processing

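No member result changed sign with a call under any alternative, and the day 2 genotype count, 4 of 7 probes, was 3 to 6 with single arrays left out. The day 4 genotype count, 2 in the reported fit, was 0 without centring, with quantile normalization, with missing values set to the lowest other value and with only the groups compared in the fit, 1 with only probes on all 30 arrays and 1 with array weights. The F test count, also 2, was 1 without centring, 3 with quantile normalization, 0 with missing values set to the lowest value, 1 for either other filter, 5 with array weights and 1 with a trend and robust fit. Array weights raised the lactation count from 0 to 2, the day 3 count from 0 to 1 and the count over all times from 3 to 5, and it was also 5 without array 3 of wild type day 2 and array 3 of E2F3 +/- day 4. The day 3 call with array weights was Retnla, higher in E2F3 +/- glands by 3.89 (limma adjusted p = 0.00722). The macrophage markers higher at E2F3 +/- day 1, 4 as reported, were 9 with array weights and 8 with only the groups compared, and those lower in E2F3 +/- glands at day 2, 9 as reported, were 4 with only the groups compared. Over the fits that left out 1 array, the counts were 0 to 2 at day 4, 2 to 5 over all times, 0 to 2 for the F test, 3 to 4 for the day 1 markers and 5 to 11 for the day 2 markers. With the replicate number as a block the day 4 count was 1 and the F test count 1. The numbers do not pair the mice: over 135 same-numbered pairs the deviations correlated at -0.58 to 0.41 (median 0.01), with 35 over 0.1. The cause of these shifts was not tested. With only probes on all 30 arrays Gpnmb, Apoc1 and Retnla had no value, and with only the groups compared there was no F test. Ratios alone show no signal over background, which limits what can be said of the members with low ratios.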
